A study of Mus musculus with 9 samples.

Results

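The interleukin 1 family and its receptors were examined in mouse lung, in 4 control and 5 irradiated samples, each measured on 1 microarray. The genes were chosen by name: the ligands Il1a, Il1b, Il18 and Il33, the antagonist Il1rn, and the receptors Il1r1, Il1r2, Il1rap, Il18r1 and Il1rl1. All 10 were found through the accession of their probes, and each was represented by its brightest probe, so that 10 of the 20832 genes tested are described here. All 10 passed the filter on dim probes and lay well above background on all 9 arrays.

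The lungs came from male C57BL/6 mice, whose stated age was 10 weeks for all samples. The age at which the lungs were taken is not given separately for any array. Anaesthesia with zoletil and rompun accompanied the irradiation, and no genetic change, other agent or sort of cells is named for either group. Triplicate RNAs of a time point were pooled before they were amplified and labelled, so an array is a pool and not a mouse. Neither the radiation dose, nor the lung region, nor the time after irradiation of an array is given by the labels, and the irradiated arrays may differ from each other in all of these. The p-values therefore measure the spread between these arrays, which may be partly technical. In tissue RNA, fewer cells of a type and less RNA per cell cannot be told apart.

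IL-1α and IL-1β bind the receptor encoded by Il1r1, which signals with the accessory protein encoded by Il1rap. The antagonist encoded by Il1rn occupies the same receptor without signalling, and Il1r2 encodes a decoy. IL-33 acts through the receptor encoded by Il1rl1 (ST2), again with Il1rap, and IL-18 through Il18r1 with Il18rap. The receptors pass the signal through MyD88 and the IRAK kinases to NF-κB and MAP kinases. IL-1β and IL-18 are made as precursors that caspase 1 cleaves in inflammasomes, while IL-1α and IL-33 are stored in cells, among them epithelial and, for IL-33, endothelial and stromal cells, and are known as alarmins released on damage. In lung, IL-33 is known for its action on mast cells, type 2 innate lymphoid cells and regulatory T cells.

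The promoters of Il1a, Il1b and Il33 are shown. The first and last had the smallest p-values of the family, while Il1b had a lower irradiated mean. None of these passed the adjusted threshold in the comparison of the groups described below. Each sequence runs from 250 bases before to 50 bases after a transcription start, 5′ to 3′ on the strand of the gene, from RefSeq on GRCm38.p6. Capitals mark the TATA box motif TATAAA and, in Il1a, the AP-1 motif TGANTCA. The window of Il1a is chr2:129309923-129310222 (minus strand), that of Il1b is chr2:129371090-129371389 (minus strand), and Il33 has starts with windows at chr19:29924863-29925162 and chr19:29945540-29945839 (plus strand).
Il1a: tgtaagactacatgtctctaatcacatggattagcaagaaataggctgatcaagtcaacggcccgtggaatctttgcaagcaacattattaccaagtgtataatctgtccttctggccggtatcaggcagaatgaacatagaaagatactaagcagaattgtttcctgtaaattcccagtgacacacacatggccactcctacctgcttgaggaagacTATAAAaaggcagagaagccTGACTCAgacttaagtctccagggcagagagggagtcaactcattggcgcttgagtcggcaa
Il1b: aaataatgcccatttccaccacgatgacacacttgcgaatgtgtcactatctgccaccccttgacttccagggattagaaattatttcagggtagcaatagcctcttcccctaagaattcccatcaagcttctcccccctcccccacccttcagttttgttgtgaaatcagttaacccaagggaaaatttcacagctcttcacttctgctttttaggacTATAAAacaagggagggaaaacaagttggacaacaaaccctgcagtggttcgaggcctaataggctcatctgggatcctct
Il33, first start: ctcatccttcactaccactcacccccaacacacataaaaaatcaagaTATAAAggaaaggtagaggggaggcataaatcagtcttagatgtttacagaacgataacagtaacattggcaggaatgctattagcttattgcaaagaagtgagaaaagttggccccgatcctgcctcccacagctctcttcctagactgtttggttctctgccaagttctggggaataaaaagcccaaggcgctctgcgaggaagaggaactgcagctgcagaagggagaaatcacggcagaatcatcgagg
Il33, second start: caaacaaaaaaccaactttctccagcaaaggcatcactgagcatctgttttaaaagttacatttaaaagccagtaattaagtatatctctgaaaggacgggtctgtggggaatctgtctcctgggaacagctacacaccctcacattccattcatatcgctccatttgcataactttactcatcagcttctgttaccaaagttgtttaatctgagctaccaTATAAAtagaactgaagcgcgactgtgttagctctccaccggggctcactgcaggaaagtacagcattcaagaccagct

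A TATAAA was found at -32 in Il1a, at -31 in Il1b, and at -203 and -29 in the windows of Il33, counted to the first base of the motif as read on the plus direction of the gene. The AP-1 motif of Il1a, TGACTCA, lay at -12. All 10 members had a window, 17 windows in all. On either strand, TATAAA was found in 6 of the 17 windows and in 13.6% of all 32851 promoter windows of the same length. TGANTCA was found in 2 windows of the family, those of Il1a and Il1rn, and in 7.81% of all windows. The NF-κB consensus was found in 1 window of the family, the second start of Il1r1, and in 8.46% of all windows. These are matches of letters only. In the genome, Il1a and Il1b are neighbours on chromosome 2, and Il1r2, Il1r1, Il1rl1 and Il18r1 lie in a row on chromosome 1 with Il1rl2 between Il1r1 and Il1rl1.

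Between irradiated and control lungs, 0 of the 10 members passed an adjusted p of 0.05 in limma, against 83 of 20832 genes (0.398%), and 0 of their 14 probes, against 131 of 39302 probes (0.333%). At an unadjusted p under 0.05, 2 members were found, Il1a and Il33, both higher in irradiated lungs, against 12% of all genes in either direction and 7.07% with a higher irradiated mean. The irradiated mean was higher for 8 members and lower for 2, Il1b and Il1rap, where 51.4% of all genes had a higher irradiated mean. The median difference of the members was 0.14 on the log2 scale, against 0.0063 for all genes. In 1 member, Il1a, all irradiated arrays lay above all control arrays, against 3.22% of all genes in that direction, 1.74% in the other and 4.96% in either.

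**Figure D1:**
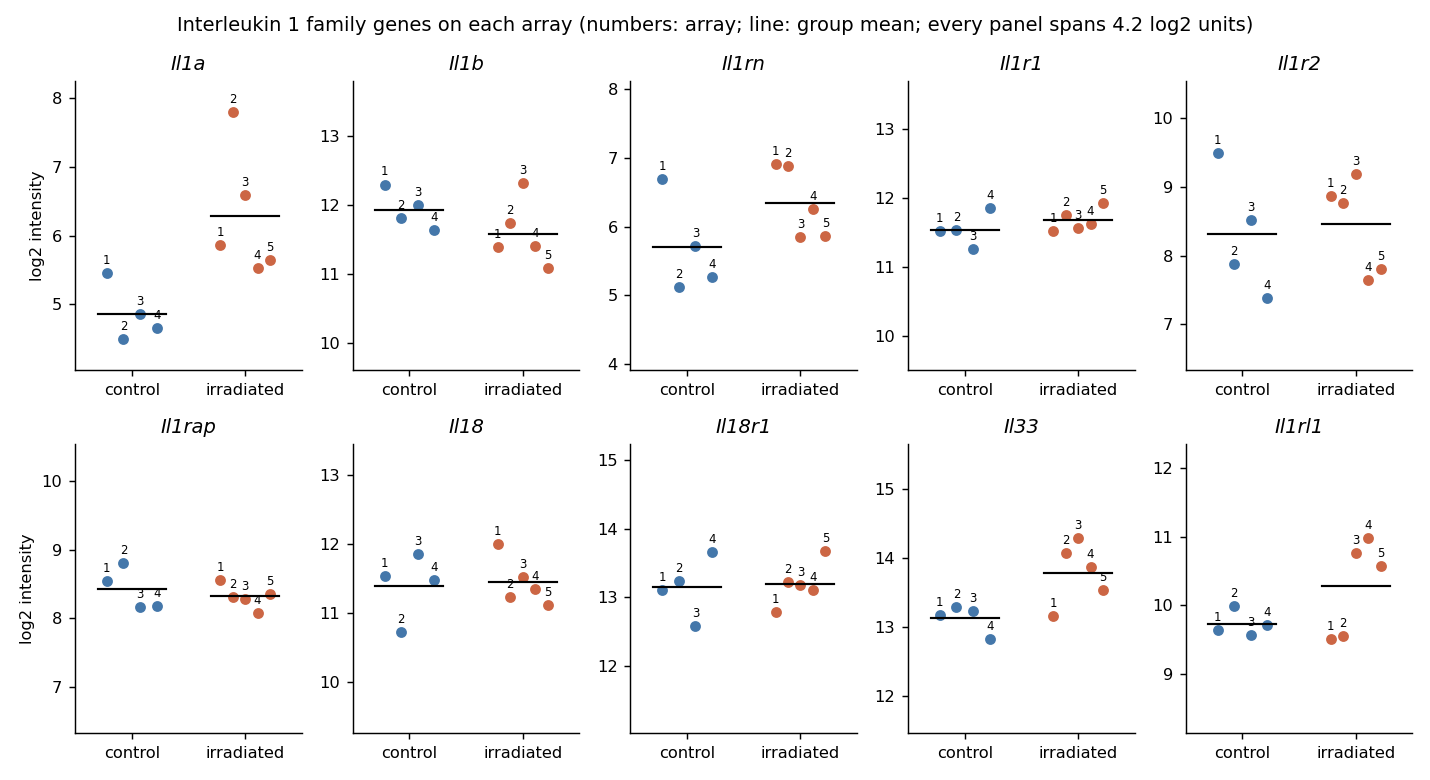
Normalized log2 intensity of the brightest probe of each member on the 4 control arrays (blue) and the 5 irradiated arrays (orange), with the array number beside each point and a line at the group mean. All panels have the same span but not the same position, since intensities of different probes do not compare. The groups are apart in Il1a, while in Il33 irradiated array 1 lies among the controls.

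The 9 arrays carried no saturated spot, and 72.8% to 89.1% of their gene spots were well above background. All 8 lung markers were well above background on every array. Some arrays stood apart in markers of other tissue. The summed intensity of 10 heart muscle genes was 11917 in irradiated array 1 and between 174132 and 333082 in the other arrays. That of 8 skeletal muscle genes was 120532 in control array 3 and at most 3039 elsewhere. All 5 fat markers had a lower irradiated mean, with summed intensities of 1721 to 14523 in irradiated and 12278 to 21936 in control arrays. The main results were also computed without irradiated array 1 and control array 3. The number of genes called depended on the set of arrays: with 1 array left out, between 5 and 485 probes passed, and 485 passed without irradiated array 1.

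Among the ligands, Il1a had the largest difference of the family. Its log2 intensities (probe A_52_P100926) were 5.45, 4.50, 4.85 and 4.66 in the control arrays and 5.86, 7.79, 6.58, 5.53 and 5.65 in the irradiated arrays. The groups did not overlap, irradiated arrays 2 and 3 were the highest, and irradiated arrays 4 and 5 lay just above control array 1. The difference was 1.42 ± 0.45 (SE) with a 95% interval of 0.41 to 2.43, which is 2.67-fold, and the adjusted limma p was 0.282. The probe was dim, and the difference was 0.70 with normexp background correction and 0.85 in the normalized table of the authors.

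Il33 had the other small p-value. Its log2 intensities (probe A_55_P1964960) were 13.18, 13.29, 13.23 and 12.82 in control arrays, against 13.16, 14.07, 14.29, 13.87 and 13.53 in irradiated arrays. Irradiated arrays 2 to 5 lay above all controls, and irradiated array 1 lay among them. The difference was 0.66 ± 0.21, or 1.58-fold, with an interval of 0.18 to 1.13 and an adjusted limma p of 0.292. Without irradiated array 1 it was 0.81, with an adjusted limma p of 0.0606, and without this array and control array 3 it was 0.84, with an adjusted limma p of 0.132.

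The scan features of the array images allowed a comparison within pairs. In 4 pairs, a control and an irradiated array began at nearly the same height of the scanner image and had nearly the same local background: controls 1, 2, 3 and 4 with irradiated 2, 3, 4 and 5. Irradiated array 1 had no partner. The arrays carry no slide number in the labels, so these are shared scan features and not known slides. Within the pairs, the differences of Il33 were 0.89, 1.01, 0.65 and 0.71, and those of Il1a 2.34, 2.09, 0.67 and 0.99. Both genes were higher in the irradiated array of all 4 pairs. With the pair as a fixed block, where irradiated array 1 adds nothing to the difference, Il33 differed by 0.81 with an adjusted limma p of 0.0255 and Il1a by 1.52 with an adjusted limma p of 0.0807. With the pair as a random block, Il33 differed by 0.75 and Il1a by 1.48, with adjusted limma p-values of 0.0112 and 0.0207. These fits also called more probes in all, 1105 (2.81%) and 2898 (7.37%), and 1 and 2 members respectively, so the family is read against those shares.

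**Figure D2:**
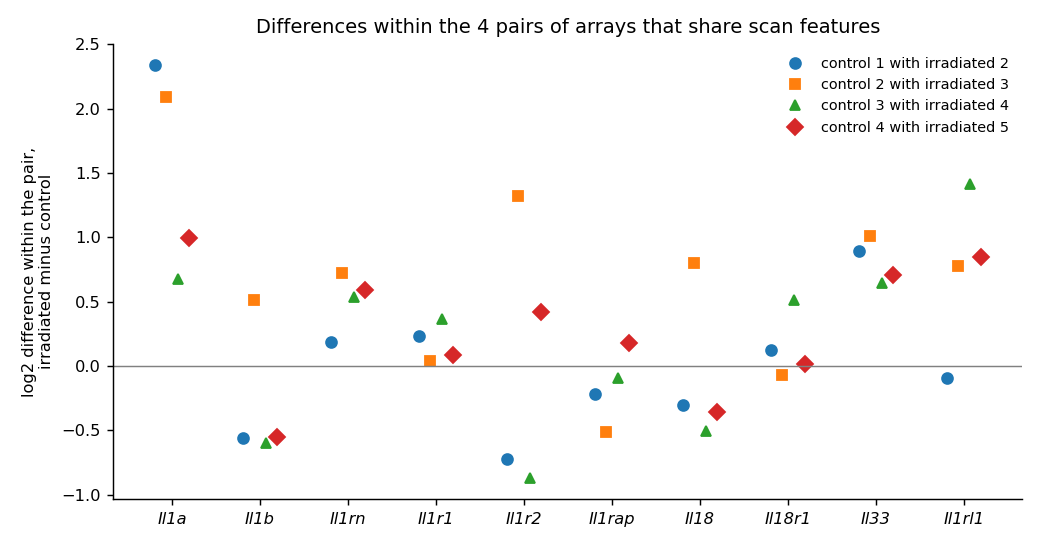
Log2 difference of each member within the 4 pairs of arrays that share scan features, irradiated minus control. Il1a, Il1rn, Il1r1 and Il33 lie above 0 in all 4 pairs, and Il1b lies below 0 in 3 of them and above it in the pair of control 2 and irradiated 3.

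Il1b was measured by 10 spots of the same probe (A_51_P212782), whose log2 intensities differed within an array by an SD of 0.034 to 0.060. Its values were 12.30, 11.81, 12.00 and 11.63 in the control arrays and 11.39, 11.74, 12.32, 11.40 and 11.08 in the irradiated arrays. Irradiated arrays 1, 4 and 5 lay below all controls, and irradiated array 3 above them. The difference was -0.35 ± 0.24, with an interval of -0.88 to 0.18 and an adjusted limma p of 0.718. Without irradiated array 3 the difference was -0.53, and without irradiated array 5 or control array 1 it was -0.22 or -0.23. Neutrophils are known for a high Il1b level, and 9 of 11 neutrophil markers measured had a lower irradiated mean, with summed intensities of 240456 to 344345 in irradiated and 274720 to 473318 in control arrays. Their part in the result was not tested.

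Il18, which like Il1b encodes a precursor cleaved by caspase 1, had control values of 11.54, 10.72, 11.86 and 11.48 and irradiated values of 12.00, 11.23, 11.52, 11.35 and 11.12. Irradiated array 1 was highest and control array 2 lowest, and the other 7 arrays were mixed. The difference was 0.045 ± 0.24, with an interval of -0.49 to 0.58 and an adjusted limma p of 0.990.

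The antagonist Il1rn had control values of 6.70, 5.13, 5.72 and 5.27 and irradiated values of 6.90, 6.88, 5.85, 6.26 and 5.86. Control array 1 was high among controls, so that irradiated arrays 1 and 2 alone lay above all of them. The difference was 0.65 ± 0.37, with an interval of -0.18 to 1.48 and an adjusted limma p of 0.645. Without control array 1 the difference was 0.97, with an adjusted limma p of 0.350. The probe was dim, and the difference was 0.29 with normexp background correction and 0.31 in the normalized table of the authors. Since IL-1β and its antagonist compete for a receptor, Il1b was also set against Il1rn within each array, in a measure that a constant shift of a whole array leaves as it is. The log2 difference Il1b minus Il1rn was 5.60, 6.68, 6.28 and 6.36 in control arrays and 4.49, 4.86, 6.47, 5.14 and 5.22 in irradiated arrays. All irradiated arrays but array 3 lay below the lowest control. The group means were 6.23 ± 0.45 (SD, n = 4) and 5.24 ± 0.75 (SD, n = 5), a difference of -0.995 with an exact two-sided permutation p of 0.0635, where the smallest p that 4 arrays against 5 allow is 0.00794. Without irradiated array 3, the only irradiated array not below the controls, the groups separate by construction; the difference was -1.30 and its exact permutation p of 0.0286 is the smallest that 4 arrays against 4 allow. The other 8 omissions of an array gave exact permutation p-values of 0.0893 to 0.143. Within the scan pairs, in a comparison chosen after seeing the data, the irradiated minus control differences were -0.74, -0.21, -1.14 and -1.14, with an exact sign-flip p of 0.125, the smallest that 4 pairs allow. The difference was -0.56 in the normalized table of the authors and -0.63 with normexp background correction, with exact permutation p-values of 0.175 and 0.0873. The quantity is a difference between probes and not a ratio of molecules.

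Il1r1, the signalling receptor for IL-1, had control values of 11.53, 11.53, 11.27 and 11.85 and irradiated values of 11.52, 11.76, 11.57, 11.63 and 11.94. All irradiated arrays but array 5 lay within the control range, the difference was 0.14 ± 0.13, and its interval of -0.15 to 0.43 was the narrowest of the family (adjusted limma p 0.826). It moved to 0.047 without control array 3, to 0.077 without irradiated array 5 and to 0.24 without control array 4. The decoy receptor Il1r2 varied most among control arrays, with 9.49, 7.87, 8.51 and 7.38, against 8.87, 8.77, 9.19, 7.64 and 7.80 in irradiated arrays. Its difference was 0.14 ± 0.46 with an interval of -0.88 to 1.16 (adjusted limma p 0.976), so changes of about 2-fold in either direction could not be told from none. Il1r2 is known as a neutrophil gene too.

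The accessory receptor Il1rap had control values of 8.54, 8.80, 8.17 and 8.18 and irradiated values of 8.56, 8.31, 8.29, 8.07 and 8.36. The irradiated arrays lay within or just below the control range, with a difference of -0.10 ± 0.17, an interval of -0.48 to 0.28 and an adjusted limma p of 0.923. Il18r1, the binding receptor for IL-18, had control values of 13.11, 13.25, 12.59 and 13.66 and irradiated values of 12.79, 13.23, 13.18, 13.10 and 13.68. The difference was 0.044 ± 0.22, with an interval of -0.45 to 0.53 and an adjusted limma p of 0.989. Both genes had another probe with another RefSeq accession, and these differed by -0.058 and 0.10, with adjusted limma p-values of 0.990 and 0.947.

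**Figure D3:**
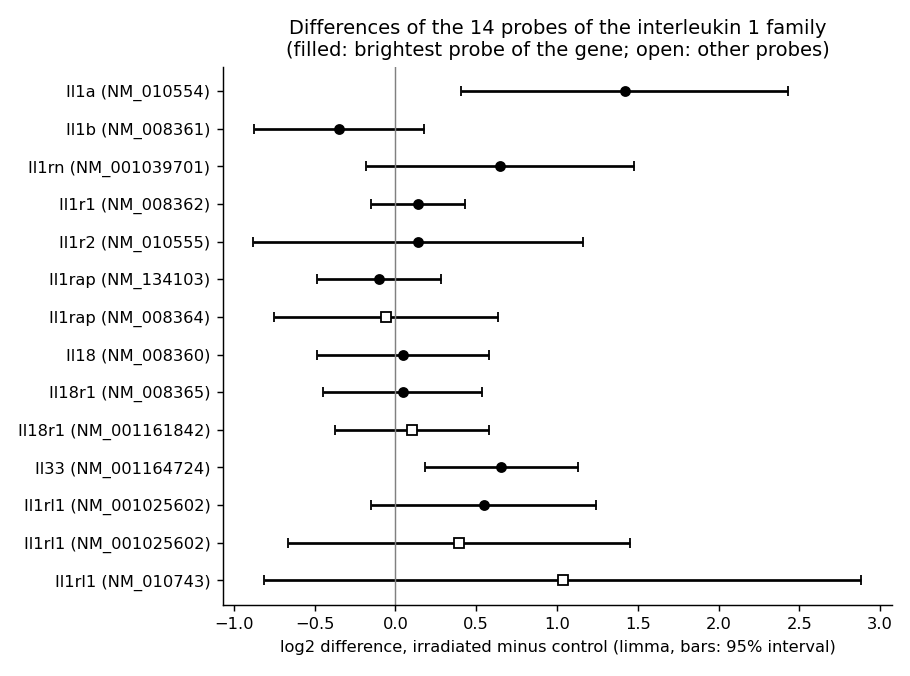
Log2 difference between irradiated and control arrays for the 14 probes of the family, with 95% intervals from limma. The intervals of Il1a and Il33 lie above 0 and those of the other 12 probes include it; no probe passed the adjusted threshold.

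Il1rl1, the receptor for IL-33, split the irradiated arrays. Its brightest probe (A_55_P2027737) had control values of 9.65, 9.99, 9.57 and 9.72 and irradiated values of 9.52, 9.55, 10.77, 10.98 and 10.57. Irradiated arrays 3, 4 and 5 lay above all controls, and irradiated arrays 1 and 2 below all of them. The difference of the means was 0.55 ± 0.31, with an interval of -0.15 to 1.24 and an adjusted limma p of 0.641. Within the scan pairs it was -0.095, 0.77, 1.42 and 0.85. The irradiated SD was 0.69 and the control SD 0.19. The labels give no dose, region or time that would divide these 5 arrays.

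The Il1rl1 gene makes a membrane-bound receptor and a secreted form that binds IL-33 without signalling. Another probe with the accession of the brightest one had values of 4.84, 4.34, 5.07 and 4.24 in controls and 4.12, 3.85, 5.49, 6.20 and 5.42 in irradiated arrays. The remaining probe, with another accession, had 4.48, 2.85, 3.40 and 4.44 against 1.85, 4.61, 5.46, 6.26 and 5.97. Both gave their 3 highest values in irradiated arrays 3, 4 and 5, as the brightest probe did. They were well above background on 1 and 2 control arrays and on 3 irradiated arrays each, so their differences of 0.39 and 1.04 (adjusted limma p 0.877 and 0.781) rest partly on values near background. Which transcript each probe reads was not settled, since the probes' sequences were not used here.

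In 4 pairs of probes with different accessions for a member, 1 in Il1rap, 1 in Il18r1 and 2 in Il1rl1, the difference between the probes was compared between groups. The differences of these differences were -0.044, -0.059, -0.49 and -0.64, and the exact permutation p adjusted over the 4 pairs was 0.921 for each. The Il1rl1 pairs depended on single arrays: without irradiated array 1 they were at -1.06 and -1.17, both with an adjusted exact permutation p of 0.171, without control array 2 at -0.074 and -0.41, and without irradiated array 2 at -0.34 and -0.39. Within the scan pairs, in a comparison chosen after seeing the data, the first Il1rl1 pair differed by -0.22, -1.84, -1.44 and -0.68 and the other by -1.12, -1.46, -1.73 and -0.35, below 0 in all 4 pairs. The exact sign-flip p of each was 0.125, the smallest that 4 pairs allow, and 0.25 after adjustment over the 4 probe pairs. The probe they share was well above background on only 2 control arrays.

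**Figure D4:**
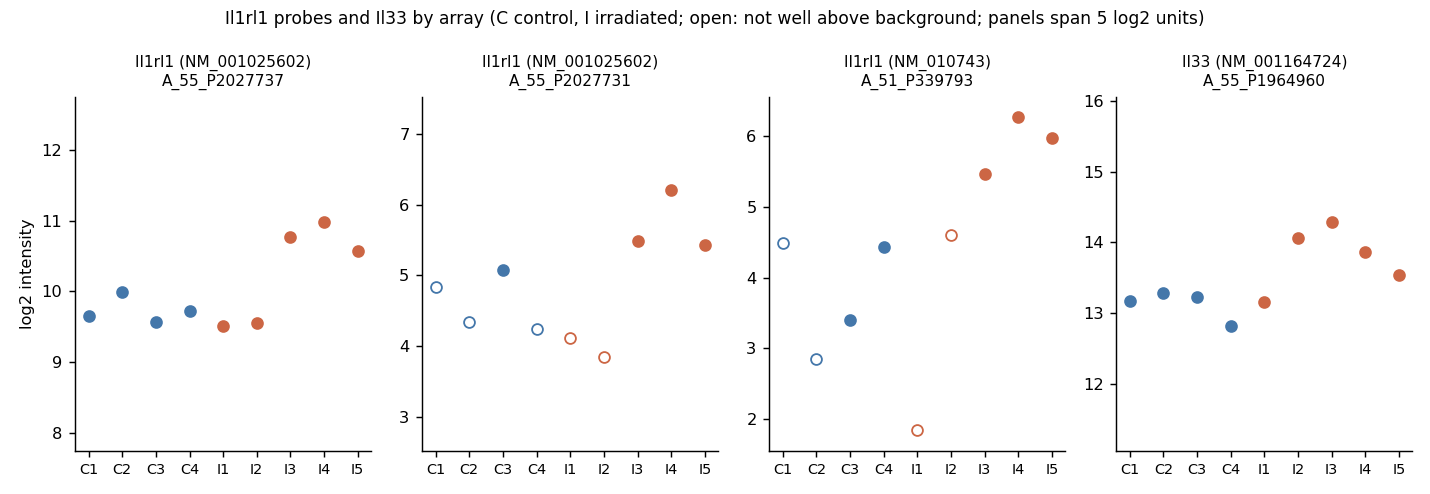
Log2 intensity of the 3 Il1rl1 probes and of Il33 on each control (C) and irradiated (I) array, with open points where a probe was not well above background. Irradiated arrays 3 to 5 lie highest for all 3 Il1rl1 probes, while Il33 lies above the controls in irradiated arrays 2 to 5.

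Cells that carry ST2 were looked at through their markers. Of 4 markers of type 2 innate lymphoid cells, 3 had a higher irradiated mean, with summed intensities of 6058 to 7797 in control and 6209 to 8244 in irradiated arrays. Of 8 mast cell markers, 3 had a higher and 5 a lower irradiated mean, and the sums were 32058 to 42312 and 26047 to 39080. Of 3 basophil markers, 1 had a higher and 2 a lower irradiated mean. Their sums were 219 to 667 in control and 103 to 445 in irradiated arrays. In each of these lists 0 genes passed the test, against 0.398% of all genes. No list of regulatory T cell markers was made. All 4 innate lymphoid markers and 7 of the 8 mast cell markers were well above background on all 9 arrays, while Ms4a2 was so on 2 control arrays and on 0 irradiated arrays. Kit, the gene of the stem cell factor receptor, lay below all controls in all irradiated arrays, as did 1.74% of all genes. Its difference was -0.83, with an adjusted limma p of 0.0880. The 3 mast cell markers with a higher irradiated mean were Cpa3, Cma1 and Hdc, by 0.14, 0.16 and 0.079. Of 7 macrophage markers, 5 had a higher irradiated mean and 2 lay above all controls in all irradiated arrays, Adgre1 and Mrc1, with differences of 0.72 and 0.60 and adjusted limma p-values of 0.138 and 0.0652, where 3.22% of all genes lay so. Itgax, Lyz2 and Csf1r were higher by 0.70, 0.30 and 0.089, with adjusted limma p-values of 0.150, 0.859 and 0.874. Marco and Siglecf had lower irradiated means, by -0.63 and -0.47, with adjusted limma p-values of 0.773 and 0.759. The summed intensities of the macrophage list overlapped, at 89839 to 164027 in control and 139129 to 180604 in irradiated arrays. Macrophages are known to make several members of the family. The part of these cell types in the results was not tested.

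Lists of the wider pathway held 78 genes (Csf2 is in 2 of them), of which 1 passed the threshold, higher in irradiated lungs, against 0.398% of all genes, and 18 had an unadjusted p under 0.05, against 12%. The count that passed depended on the setting. It was 10 and 17 with the scan pair as a fixed and a random block, where 2.81% and 7.37% of all probes passed. Without irradiated array 1 it was 7, where 485 of 39245 probes passed. With the replicate block it was 0, where 1 of 39302 probes passed. The other ligands and antagonists numbered 6, and 0 passed. Il18bp, which binds and neutralises IL-18, had values of 10.25, 9.67, 9.65 and 9.59 in controls and 9.91, 11.05, 10.62, 10.45 and 10.11 in irradiated arrays, a difference of 0.64 ± 0.23 with an adjusted limma p of 0.365. With the scan pair as a fixed block its adjusted limma p was 0.0309. Il1f9, the gene of IL-36γ, differed by -0.056 ± 0.41, and the other 4 genes of this list were not well above background on most arrays. Of the 5 other receptors, 0 passed. Sigirr, an inhibitory receptor of the family, differed by -0.10 ± 0.094 (-0.043 without irradiated array 4 and -0.054 without control array 2), and Il18rap, the signalling partner of Il18r1, by 0.052 ± 0.29.

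All 15 inflammasome genes were well above background on all arrays, 0 passed, 0 had an unadjusted p under 0.05, and their median difference was 0.0083. Of all genes, 0.398% passed and 12% had an unadjusted p under 0.05. The largest differences were those of the sensor Nlrp3, at -0.33 ± 0.21, and of Naip2, at 0.33 ± 0.17. Nlrp3 was at -0.53 with 75th percentile scaling, at -0.22 with normexp background correction and at -0.16 in the mean of its probes, and Naip2 was at 0.18 without control array 2 and at 0.19 in the normalized table of the authors. Caspase 1 itself (Casp1) differed by 0.16, with an adjusted limma p of 0.839. Casp4, which takes part in the noncanonical inflammasome, passed with the scan pair as a fixed block and without irradiated array 1. In these fits 2.81% of all probes and 485 of 39245 probes passed. Of 25 adaptor and signalling genes 0 passed and 1 had an unadjusted p under 0.05, Tnfaip3, the feedback inhibitor A20, at 0.30 ± 0.11 (adjusted limma p 0.392). Relb, a subunit of NF-κB, differed by 0.37 ± 0.19. With the scan pair as a random block both passed, Tnfaip3 at an adjusted limma p of 0.0399 and Relb at 0.0489. With it as a fixed block Myd88 passed instead. Of all probes, 7.37% passed in the random fit and 2.81% in the fixed fit. The median over these 25 genes was 0.034.

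Genes known to be induced by IL-1 had the largest median difference of the 6 lists. Of 16, 0 passed the adjusted threshold, but 12 had an unadjusted p under 0.05, 15 had a higher irradiated mean, and their median difference was 1.15, against 0.0063 for all genes. All irradiated arrays lay above all controls for 4 of them, Ptgs2, Icam1, Vcam1 and Mmp3. Over all genes, 0.398% passed, 12% had an unadjusted p under 0.05, 7.07% with a higher irradiated mean, and 3.22% lay above all controls. With the scan pair as a block, 5 of the 16 passed in the fixed fit (Cxcl1, Ccl2, Il6, Saa3 and Lcn2) and 11 in the random fit, against 2.81% and 7.37% of all probes. Saa3, an acute phase protein, had values of 11.51, 11.21, 9.46 and 9.75 in controls and 11.21, 15.66, 13.25, 14.40 and 14.02 in irradiated arrays. Its difference was 3.22 ± 0.80, with an adjusted limma p of 0.157. Cxcl1, a neutrophil attractant, had 6.51, 6.08, 5.32 and 5.28 against 6.24, 9.19, 8.42, 9.28 and 9.71, a difference of 2.77 ± 0.64 with an adjusted limma p of 0.127. For both genes irradiated array 1 lay within the controls and arrays 2 to 5 lay above them. Without irradiated array 1, where 485 of 39245 probes passed, the differences were 3.83 and 3.31, with adjusted limma p-values of 0.0230 and 0.00780. Without this array and control array 3, Cxcl1 passed and Saa3 did not. Such genes are induced by many other signals too.

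Of 12 genes induced by IL-18 or IL-33, 1 passed, against 0.398% of all genes. At an unadjusted p under 0.05 there were 4, against 12% of all genes. Areg encodes amphiregulin, a growth factor that type 2 innate lymphoid cells make in response to IL-33 and that epithelial cells make as well. Its values were 9.07, 9.18, 8.41 and 8.92 in control arrays and 10.83, 11.44, 12.04, 11.64 and 11.69 in irradiated arrays, with a wide gap between the groups. The difference was 2.63 ± 0.24 with an adjusted limma p of 0.00668. Areg was higher in 5 of 5 irradiated arrays than in any control, as were 3.22% of all genes. With the replicate block its adjusted limma p was 0.258, although the array numbers do not pair the arrays. Of the other 11 genes, Il13, a cytokine of type 2 immunity, was not well above background on any control array and was so on 3 irradiated arrays, and Il5 was detected on 2 control and 3 irradiated arrays. The interferon γ gene, Ifng, a target of IL-18, differed by 0.40 with an adjusted limma p of 0.903. The median of the list was 0.54.

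**Figure D5:**
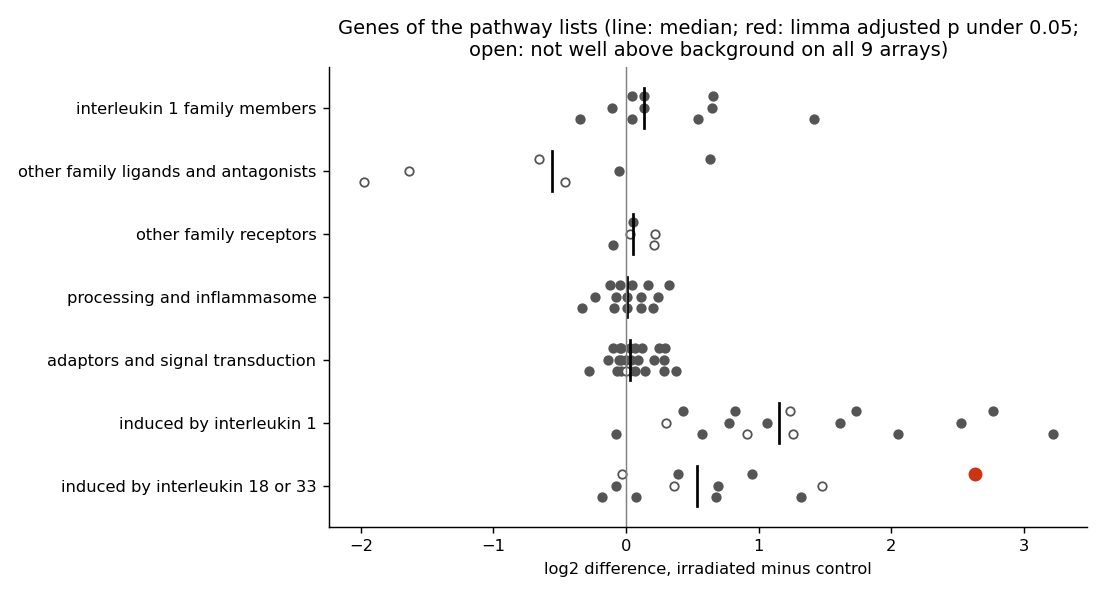
Log2 difference between irradiated and control arrays for each gene of the pathway lists and for the members, with the median of each list as a line. The medians are 1.15 for genes induced by IL-1, 0.54 for those induced by IL-18 or IL-33 and 0.14 for the members; open points were not well above background on all arrays, and the red point is Areg.

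The genes whose pattern over the 9 arrays was most like that of Il1a, the member with the smallest p, were sought among 15747 genes well above background on all arrays. After each gene was centred on its own mean, the nearest were Clec4g, Clcn5 and Bean1, with mean absolute log2 differences from Il1a of 0.332, 0.334 and 0.335. Like Il1a, all 3 had their highest value in irradiated array 2. Their differences between groups were 1.03, 0.75 and 1.11, and 0 of the 3 passed the threshold.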

How the data were processed

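RNA of 9 mouse lung samples was hybridised to Agilent whole-genome arrays in a single colour. The authors deposited the scanner software's intensity values of each array, not normalized between arrays, and a table of intensity values normalized by quantiles. The background-corrected processed signal was taken, without control spots or outlier spots. A probe was kept where its signal exceeded 1.4 times the local background in 4 or more of the 9 arrays (39302 of 39429 probes). Log2 values were quantile normalized and averaged over spots. The groups were compared with limma 3.58.1 (R 4.3.3), using an intensity trend, with Benjamini-Hochberg adjustment over all probes and a threshold of 0.05. A value was missing on some array for 88 probes. Precision is limited by the number of arrays.

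The files carry 2 editions of probe accessions, the newer on 2 arrays. The RefSeq table of GRCm38.p6 named 26055 probes through the older edition and 27566 with both. A gene was represented by its brightest probe. The members and lists were chosen with earlier results of these data known, and list counts are descriptions. Of each list, the genes past the threshold were named, otherwise the 2 with the largest difference among those well above background on all arrays. Other list genes were named after their values were seen. Differences between probes were compared with exact two-sided permutation tests.

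The alternatives were normexp with an offset of 50, 75th percentile scaling, the dim-probe filter on all arrays or none, the normalized table, each array left out, irradiated 1 and control 3 left out, a replicate block, scan pairs as a fixed or random block, no trend, array weights, a threshold of 0.01 and averaging a gene's probes. Deviations from the group mean correlated at -0.17 to 0.062 between arrays of the same number, and at 0.20 to 0.46 within scan pairs.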

Additional observations from a re-analysis of the deposited data

How the results depend on the processing

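Over 22 alternatives, Il1a, Il1rn, Il1r1, Il33 and Il1rl1 stayed higher and Il1b lower in irradiated arrays. No member passed the threshold except in the scan pair fits, with 1 member (Il33) under a fixed and 2 (Il1a, Il33) under a random block. The count of pathway genes called, 1 at first, was 0 with the replicate block and 4 without irradiated 1 and control 3. It was 10 and 17 with the scan pair as a fixed and a random block, where 2.81% and 7.37% of all probes passed. With 1 array left out it was between 1 and 7 (7 without irradiated 1, where 485 of 39245 probes passed). Il1b minus Il1rn lay between -1.30 and -0.80 with 1 array left out, the former, without irradiated 3, at the smallest p that design allows. It was -0.56 in the authors' normalized table, -0.63 with normexp, -0.78 with 75th percentile scaling and -0.81 within the scan pairs, an alternative added after seeing the data. The sign turned for several differences. With 1 array left out, Il1r2 ranged from -0.17 to 0.53, Il1rap from -0.19 to 0.023, Il18 from -0.18 to 0.20, Il18r1 from -0.14 to 0.21, Il18rap from -0.14 to 0.24 and Il1f9 from -0.33 to 0.17. The probe pairs of Il1rap and Il18r1 ranged from -0.24 to 0.30 and from -0.16 to 0.12, and those of Il1rl1 from -1.06 to -0.074 and from -1.17 to -0.39. Il18 turned to -0.093 and -0.038 with the scan pair as a fixed and a random block and to -0.058 with array weights. Il18r1 turned to -0.041 without irradiated 1 and control 3 and to -0.076 with the replicate block, and Il1r2 to -0.046 in the authors' normalized table. Il18rap turned to -0.11 with 75th percentile scaling and to -0.14 without irradiated 1 and control 3, and Il1f9 to 0.0091 with the replicate block. The probe pair of Il1rl1 with the brightest probe turned to 0.12 with normexp, and those of Il1rap and Il18r1 to 0.091 and 0.044 with 75th percentile scaling. The cause was not tested. The replicate block leaves out irradiated 5, and the array numbers do not pair the arrays. With it 1 probe of 39302 passed (3267 at an unadjusted p under 0.05), and Areg was at 2.59 with an adjusted limma p of 0.258. With 75th percentile scaling 52 of 124 probes called were higher, and 8 of 39 in the authors' normalized table, against 75 of 131. With 75th percentile scaling the median of all probes was -0.074. Signal near background limits the dim probes of Il1a, Il1rn and Il1rl1.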
